A study of Mus musculus with 8 samples.

Results

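The genes that encode BRG1 and its partner subunits of the SWI/SNF chromatin remodelling complex were examined in a map of BRG1 binding in the injured mouse heart, to see whether BRG1 marked the genes of its own complex. Members were the 10 genes of a fixed list, Smarca4, Smarca2, Arid1a, Arid1b, Arid2, Pbrm1, Smarcb1, Smarcc1, Smarcc2 and Smarcd3, looked up by symbol among the 37273 genes that GENCODE places on the autosomes, X and Y of the mouse build mm9. All 10 were found, each as 1 protein-coding gene, among 22367 protein-coding genes. They are listed for their place in the complex, not for a measured value.

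The study compared hearts of adult mice, C57BL/6 and aged 10 to 12 weeks per the labels. The study's methods give C57BL/6J and an older range. The mice had been primed by daily intraperitoneal injection for a week with thymosin β4 (Tβ4, 12 mg per kg), a small actin-binding peptide, or with PBS as vehicle. A lasting tie around the left anterior descending artery then gave a myocardial infarction (MI). Tβ4 or PBS was injected again on day 0 and day 2, and hearts were collected on day 4. Chromatin immunoprecipitation followed by sequencing (ChIP-seq) with a rabbit antibody against SNF2b/Brg1 gave 2 libraries for each priming, each with 2 input libraries, 8 in all. The values below come from 1 deposited list of 524614 regions. By its name, the list compares BRG1 ChIP with input in the Tβ4-primed, injured hearts, and its regions are read here as ChIP above input. That arm has 4 of these libraries, and the list names no replicate. The PBS-primed arm was not analysed here. The hearts were digested whole, so that cardiomyocytes and all other cell types contributed to the chromatin. Each region has a position and a length but no height or score, and the duplicates are not separated. Depth and replicate error are therefore unknown, no value carries an error, and no difference was tested.

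SWI/SNF complexes are ATP-driven machines that move or remove histone octamers along DNA, which changes how readily transcription factors reach promoters and enhancers. A single ATPase, BRG1 or BRM, works at the centre of each complex, around a core of scaffold subunits, and exchangeable subunits define the BAF form, which carries ARID1A or ARID1B, and the PBAF form, which carries ARID2 and the bromodomain protein polybromo. Among the exchangeable subunits, BAF60C is known from the developing heart as a partner of cardiac transcription factors, and loss of BRG1 disturbs heart formation in the mouse embryo.

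For each gene, the covered share is the percentage of bases that lie inside regions. It was taken over the gene window, which is the gene body with 5 kb on each side, and over the start window, which is 5 kb on each side of the annotated gene start. The 200 genes closest in length to a gene are its genes of like length, and its percentile is its rank among them, with 50 in the middle. The list covered 25.8% of the genome, and the median gene had 24.0% of its gene window and 21.5% of its start window inside regions. Coverage was thus widespread, and the members were read against that level.

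Smarca4 encodes BRG1, the ATPase that the antibody recognised. It lies on the plus strand at chr9:21420613-21508674 and spans 88062 bp. Its gene window held 32 regions that covered 40.1% of the bases, against a median of 26.2% for genes of like length, a percentile of 93 and the highest share of the 10 members. The start window gave the opposite picture, with 2 regions and a covered share of 4.84%, against 23.7% for genes of like length, a percentile of 19.5. No region lay in the 5 kb upstream of the Smarca4 start, which stood in a region-free stretch of 11.7 kb. The first region downstream was 300 bp long and began 3.14 kb inside the gene, within an intron, and the second began 4.82 kb inside. Coverage by BRG1 regions was therefore high in the body of the BRG1 gene and low around its annotated gene start.

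The 250 bases before the Smarca4 start, at chr9:21420363-21420612 on the plus strand of mm9, are shown with the nearest region, at chr9:21423750-21424049 on the same strand, because they are the stretch without a region and the stretch with one. Capitals mark CpG dinucleotides.
Smarca4 before the start: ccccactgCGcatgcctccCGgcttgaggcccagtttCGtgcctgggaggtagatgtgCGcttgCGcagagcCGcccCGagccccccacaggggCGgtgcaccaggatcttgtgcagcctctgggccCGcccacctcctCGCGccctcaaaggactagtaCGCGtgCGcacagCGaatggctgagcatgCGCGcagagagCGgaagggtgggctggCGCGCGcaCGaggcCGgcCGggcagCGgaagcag
Smarca4 nearest region: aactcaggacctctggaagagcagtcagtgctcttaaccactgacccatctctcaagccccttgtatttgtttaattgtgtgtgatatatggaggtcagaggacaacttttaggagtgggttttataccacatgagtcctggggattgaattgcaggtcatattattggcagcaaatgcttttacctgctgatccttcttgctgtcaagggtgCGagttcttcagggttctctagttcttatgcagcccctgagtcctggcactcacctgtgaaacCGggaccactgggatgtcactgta
The bases before the start held 25 CpG and were 70.8% G or C, and none of them was covered. The intronic region held 2 CpG, as did the median of the 38036 regions in the list with the same length of 300 bp, and its GC content of 47.3% stood beside a median of 42.3% for those regions.

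Along the body of Smarca4, from start to end in 5 equal parts, the covered share was 17.9%, 64.0%, 43.0%, 80.1% and 16.7%. The longest region of the gene, of 7.26 kb, lay in the fourth of these and ran from 54.6 kb to 61.9 kb downstream of the start. Coverage then stopped at 75.6 kb, and no further region was met until 86.3 kb. Exons and introns of Smarca4 were covered alike, at 43.5% and 44.4%. In the 500 kb beyond the gene window on each side, 25.4% of bases were covered, so that the share within the gene was above that of its surroundings. Of its 3 annotated coding transcript starts, only the one 19.6 kb downstream of the gene start lay inside a region. Widening the start window from 5 kb to 10 kb raised the Smarca4 share to 14.8%, and narrowing it to 2 kb brought it to 0%. The mean over the windows of its 3 coding transcript starts was 20.1%.

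The 3 protein-coding genes whose coverage over 20 bins of 500 bp around the start came closest to that of Smarca4 were 2310057M21Rik, Kif5a and 9130401M01Rik, with mean absolute differences of 0.36, 0.5 and 1.53 percentage points. Of the 22366 other protein-coding genes, 2445 lay within 5 points of Smarca4, but 2117 of these had no covered base in the start window at all. As the Smarca4 start window was itself covered at only 4.84%, every gene with an empty start window falls within that limit. The gene windows of the 3 closest genes did not share the high coverage of Smarca4, with 17.8% for 2310057M21Rik, 27.6% for Kif5a and 4.90% for 9130401M01Rik. These genes are shorter than Smarca4, at 19981, 37382 and 12019 bp.

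Smarca2 encodes BRM, the ATPase that takes the place of BRG1 in other copies of the complex. At chr19:26679650-26852811 on the plus strand, it differed from Smarca4 in both windows. Its gene window held 26 regions that covered 24.4%, against 27.1% for genes of like length, a percentile of 37. Its start window was covered at 42.9%, against 23.2%, a percentile of 73.5. With 10 kb on each side of the start, the Smarca2 share was 22.9%, beside a median of 23.6% for all genes. The regions flanked the Smarca2 start without touching it. One of 1320 bp ended 531 bp upstream, one of 300 bp began 100 bp downstream, and one of 2670 bp began 1.90 kb downstream. Within the body, coverage was 12.0% and 10.0% in the first and second parts and 40.2% in the last, and a stretch of 23.2 kb in the first part held no region. The 3 longest regions of Smarca2 measured 5.19, 5.97 and 6.45 kb.

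**Figure D1:**
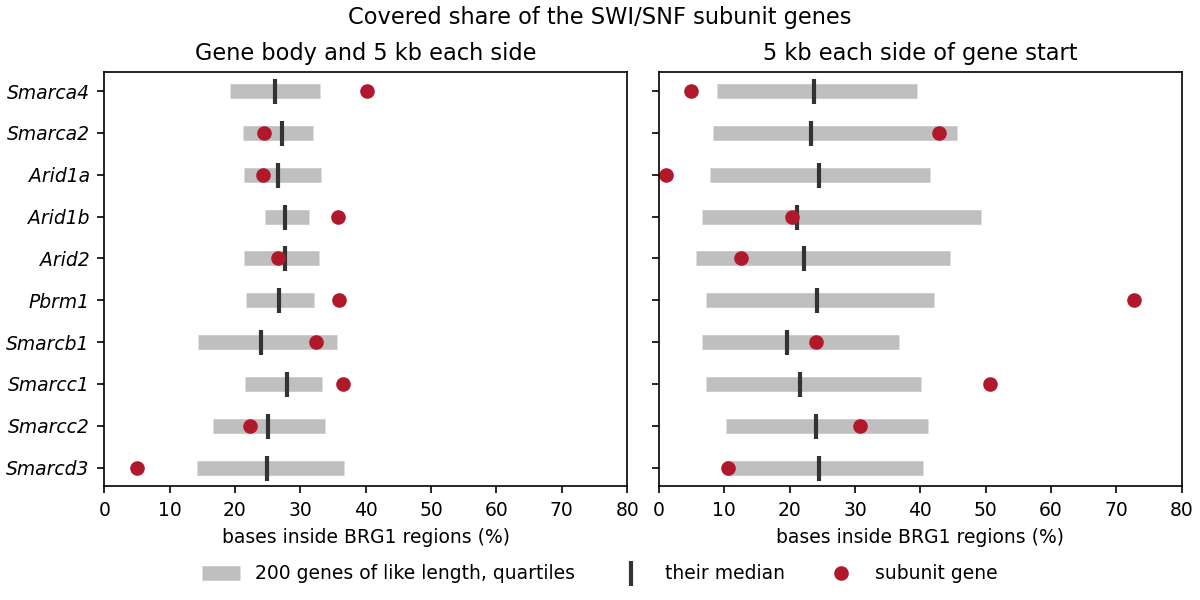
Covered share (x axis, % of bases inside BRG1 regions) of the 10 subunit genes (y axis, red points) in the gene window (left) and the start window (right); grey bars are the quartiles and black ticks the medians of the 200 genes of like length. Smarca4 stands at 40.1% on the left and 4.84% on the right, and Pbrm1 at 72.6% on the right.

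The AT-rich interaction domain subunits ARID1A and ARID1B exclude each other in the BAF complex, and their genes differed. Arid1a, at chr4:133234923-133312684 on the minus strand, had 26 regions in its gene window and a covered share of 24.3%, against 26.5% for genes of like length, a percentile of 37.5. Its start window was the emptiest of the 10, with 1.15% covered and a percentile of 11. That share came from the end of a single 5.13 kb region that stopped 4.89 kb upstream of the start. The first region inside the gene began 6.04 kb from the start, so that the Arid1a start lay in a region-free stretch of 10.9 kb, and with 10 kb on each side the share rose to 37.6%. None of its 3 coding transcript starts was inside a region.

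Arid1b, the longest member with 353325 bp at chr17:4994332-5347656 on the plus strand, held 105 regions in its gene window. They covered 35.7%, against 27.6% for genes of like length, a percentile of 91.5. The start window was near the middle of genes of like length, with 20.4% covered against 21.1% and a percentile of 47.5. That position rests on the 5 kb window at the GENCODE start. With 2 kb on each side the Arid1b share was 11.2%, and the mean over the windows of its coding transcript starts was 34.2%. Coverage of the Arid1b body was even over the first 4 parts, at 37.4%, 44.0%, 38.6% and 38.5%, and fell to 21.1% in the last, where a stretch of 30.5 kb held no region. The longest region found in any member, 8.31 kb, lay in an intron of Arid1b 117 kb from its start. Its exons were covered at 47.4% and its introns at 35.5%. No region touched the GENCODE gene start, whereas 2 of the 4 coding transcript starts, 607 bp and 742 bp downstream, lay in a region of 450 bp that began 548 bp downstream, and the RefSeq start was the second of these.

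The PBAF form is defined by ARID2 and by polybromo, the product of Pbrm1, which binds acetylated histones. Arid2, at chr15:96117953-96235894 on the plus strand, was near the middle of genes of like length in its gene window, with 34 regions, 26.6% covered against 27.7%, and a percentile of 45. Its start window was covered at 12.6%, a percentile of 36.5, by 3 regions of 210, 540 and 510 bp, all within 1.6 kb of the start. With 2 kb on each side in place of 5 kb, the Arid2 share was 31.5%. When only regions of at least 600 bp were used, it was 0%. The regions of 540 and 510 bp stood on either side of the start, 354 bp upstream and 187 bp downstream, and the next region inside the gene began only at 13.9 kb.

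Pbrm1, at chr14:31832324-31934778 on the plus strand, had the most covered start window of the members. Its 3 regions there covered 72.6%, against 24.2% for genes of like length, a percentile of 96. A region of 4410 bp began 4.60 kb upstream and ended 195 bp before the start, and regions of 2070 and 1350 bp began 1.25 kb and 4.22 kb downstream. The Pbrm1 start itself lay in the gap of 1.44 kb between the first and second of these regions. In the gene window of Pbrm1, 30 regions covered 35.9%, against 26.8%, a percentile of 86. Coverage of the body was highest in the first part, 52.9%, and the last, 46.3%, and lowest in the second, 9.15%. The window of Pbrm1 also contains Gnl3, which encodes a nucleolar GTPase, and 5 further annotated genes, so that bases of other genes contributed to these shares.

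**Figure D2:**
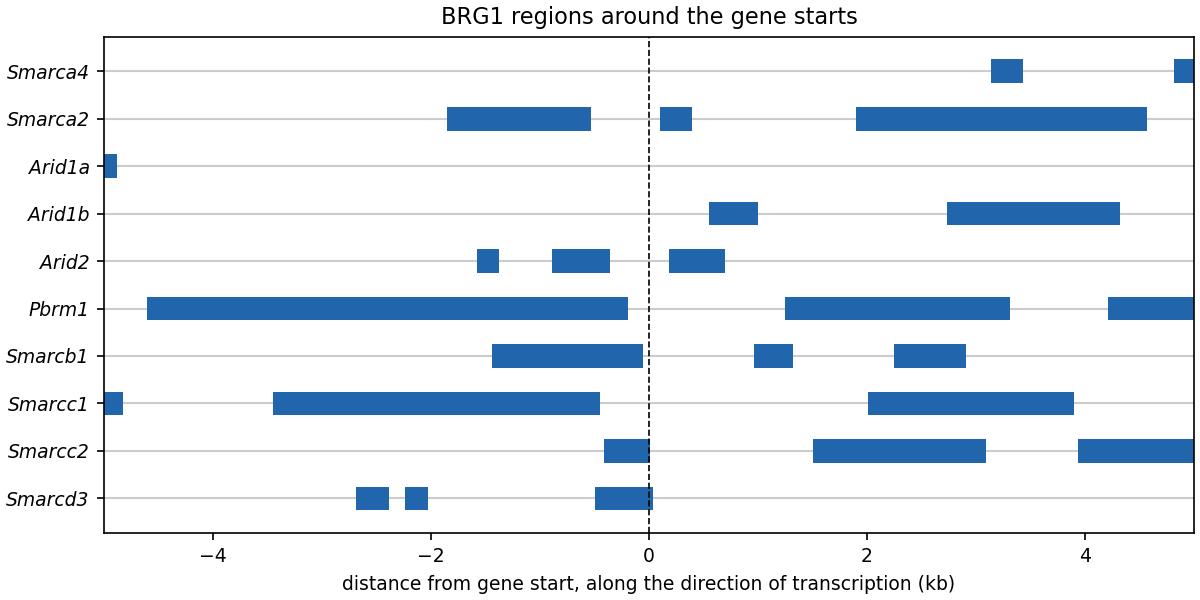
BRG1 regions (blue bars) within 5 kb on each side of the start of each of the 10 subunit genes (y axis), placed by distance from the gene start in kb along the direction of transcription (x axis). The dashed line at 0 is crossed by a region at Smarcc2 and Smarcd3 alone, and the upstream region of Pbrm1 ends 195 bp before it.

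The core of the complex is built by SMARCB1 and by the paired scaffold proteins BAF155 and BAF170, encoded by Smarcc1 and Smarcc2. Smarcb1, at chr10:75359514-75384362 on the minus strand, held 7 regions over a gene window covered at 32.4%, against 24.0% for genes of like length, a percentile of 70. Its start window had 24.0% covered, against 19.6%, a percentile of 58. With 2 kb on each side in place of 5 kb, the Smarcb1 start share was 43.5%. A region of 1380 bp ended 58 bp upstream of the Smarcb1 start, the closest approach of any region that did not reach a member's start. Coverage of the body was concentrated in the second part, at 65.8%, and was 0% in the third and the fourth, within a stretch of 12.8 kb that held no region. A region of 5.55 kb lay across the end of the gene, and the 5 kb past that end were covered at 100%. The Smarcb1 body alone was covered at 19.8%, and the gene window with flanks of 10 kb at 25.6%. The window also contains the annotated genes Derl3 and Mmp11.

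Smarcc1, at chr9:110034541-110142682 on the plus strand, was above genes of like length in both windows. Its gene window had 24 regions and 36.5% covered, against 28.0%, a percentile of 83.5. The start window had 50.6% covered, against 21.6%, a percentile of 82, mostly through regions of 3000 and 1890 bp that ended 452 bp upstream and began 2.01 kb downstream of the start, with the end of another region of 540 bp at the upstream edge. The start itself was free of regions. Coverage of the Smarcc1 body peaked in the third part at 62.4%, beside 16.1% in the first, and the longest region was 7.29 kb.

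Smarcc2, at chr10:127896292-127927229 on the plus strand, was one of the pair of members whose start lay inside a region. The region was 420 bp long and reached from 412 bp upstream to 7 bp downstream. The Smarcc2 start window was covered at 30.7%, against 24.0% for genes of like length, a percentile of 60. Over the gene window, 13 regions covered 22.3%, against 25.1%, a percentile of 40. Of the 5 parts of the body the first was the most covered, at 54.0%, through regions that began 1.51 kb and 3.94 kb downstream, and coverage was 4.36% and 5.33% in the third and the fourth. The 5 kb past the end of Smarcc2, where the myosin light chain genes Myl6 and Myl6b are annotated, were covered at 38.8%.

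Smarcd3 encodes BAF60C, the accessory subunit enriched in heart and skeletal muscle, and is the shortest member, with 11195 bp at chr5:24096636-24107830 on the minus strand. Its start also lay inside a region, of 540 bp, which ran from 499 bp upstream to 40 bp downstream. Apart from those bases the whole Smarcd3 body was without a region. The gene window held 3 regions and had 4.95% covered, against 24.9% for genes of like length, a percentile of 7 and the lowest share of the 10. The other 2 regions were of 300 and 210 bp and lay 2.69 to 2.03 kb upstream, giving a start window covered at 10.5% and a percentile of 26. Since all 3 were shorter than 600 bp, both shares were 0% when only regions of at least 600 bp were used. In the 500 kb beyond this window on each side, 24.7% of bases were covered.

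The 250 bases before the start of Smarcc2, at chr10:127896042-127896291 on the plus strand, and of Smarcd3, at chr5:24107831-24108080 on the minus strand, lay wholly inside these regions. They are shown from mm9, 5′ to 3′ along the gene, to be set beside those of Smarca4, with CpG again in capitals.
Smarcc2 before the start: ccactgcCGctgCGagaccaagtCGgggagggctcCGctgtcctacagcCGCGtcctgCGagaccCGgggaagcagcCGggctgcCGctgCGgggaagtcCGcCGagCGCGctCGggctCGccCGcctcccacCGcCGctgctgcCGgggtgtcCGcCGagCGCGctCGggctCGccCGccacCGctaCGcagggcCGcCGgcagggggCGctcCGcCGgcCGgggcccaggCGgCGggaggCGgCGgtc
Smarcd3 before the start: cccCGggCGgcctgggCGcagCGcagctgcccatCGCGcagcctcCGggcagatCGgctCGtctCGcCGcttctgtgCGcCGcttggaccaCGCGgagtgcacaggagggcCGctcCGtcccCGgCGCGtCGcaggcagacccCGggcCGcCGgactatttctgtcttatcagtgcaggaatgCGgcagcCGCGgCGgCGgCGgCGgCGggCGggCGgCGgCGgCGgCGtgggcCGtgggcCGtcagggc
Each held 40 CpG, the highest number among the members, and the GC content was 80.8% for Smarcc2 and 77.6% for Smarcd3.

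All 10 members had CpG-rich sequence before their starts. The number of CpG in these 250 bases ran from 18 at Arid1a to 40, with a median of 28 for the members and 8 for protein-coding genes, and the median GC content was 69.6% against 54%. Of the 5704 protein-coding genes with at least 18 CpG, 23.8% had a start inside a region, and of the 16663 with fewer, 24.4%. The median covered share of the start window ran the other way, at 23.8% for the former and 21.6% for the latter. Motifs of 2 families of transcription factors were looked for in the same bases on both strands. The C/EBP motif TTGCNNAA was in 0 of 10 members and in 9.16% of protein-coding genes, and the AP-1 motif TGANTCA was in 1 of 10, Smarcb1, and in 6.00%. Neither was in the 300 bp region of Smarca4 shown above, while 13.9% and 7.96% of all regions of that length held them.

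Counted together with 5 kb windows, the members lay close to genes at large. The gene start was inside a region for 2 of 10 members, against 24.7% of all genes and 24.2% of protein-coding genes. At least 1 region touched the start window of 10 of 10, against 89.9% of all genes. The gene window was above the median of genes of like length for 5 of 10, against 50.1% of all genes, and the start window for 5 of 10, against 50%. A percentile of 90 or more was reached in the gene window by 2 members, Smarca4 and Arid1b, against 10.4% of all genes, and in the start window by 1, Pbrm1, against 10.3%. The members' median percentile was 57.5 in the gene window and 52.75 in the start window, with 50 the middle of genes of like length. Not matched for length, the members' median covered share was 29.5% in the gene window, against 24.0% for all genes and 25.2% for protein-coding genes. In the start window it was 22.2%, against 21.5% and 22.2%. With 2 kb on each side of the start in place of 5 kb, it was 27.2%, against 14.7% for all genes. The start window was then above genes of like length for 6 of 10 members, against 49.9% of all genes. With 10 kb, the members' median was 23.3%, against 23.6% for all genes. In that window 4 of 10 members were above genes of like length, against 50.1% of all genes. With 5 kb, Pbrm1, Smarcb1 and Smarcc1 were above genes of like length in both the gene and the start window, Smarcb1 with the flank past its end included. Arid1a, Arid2 and Smarcd3 were below them in both. The share of all genes that lay above or below in both windows was not counted, so these names are description alone.

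The count of starts inside regions was sensitive to how a start and a region were defined. Small distances also bear on it, since the region at Smarcc2 reached only 7 bp past the start and one at Smarcb1 ended 58 bp before it. With the starts of all coding transcripts, 6 of 10 members had at least 1 inside a region, namely Smarca4, Smarca2, Arid1b, Pbrm1, Smarcc2 and Smarcd3, against 31.1% of protein-coding genes. A gene with more starts has more chances of such a hit, and neither share was matched for their number, which ran from 1 to 12 in the members. With regions of at least 600 bp alone it was 0 of 10, against 20.7% of all genes. Counting regions per kb in place of covered bases put 3 of 10 members above genes of like length in the start window, against 40.5% of all genes.

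The members' windows held 300 distinct regions. Their median length was 660 bp, beside 600 bp in the whole list, and 12 of them, or 4%, were of 5 kb or longer, beside 4.19% of the list. Introns alone held 208 of the 300, 71 touched an exon, 2 lay over a gene start, 10 lay upstream and 9 downstream. Introns make up 1008432 of the 1087832 bases of the members' bodies, and Arid1b alone gave 94 of the 208. The same breakdown was not made for all genes. Pooled over the members, 29.1% of exon bases and 31.8% of intron bases were covered, beside 26.6% and 27.5% in protein-coding genes. In the 5 parts of the body, the pooled share was 26.9%, 37.1%, 35.6%, 32.5% and 25.7%, and over protein-coding genes it stayed between 27.3% and 27.7%. Being pooled by base, these shares rest most on Arid1b and Smarca2, the longest members, and single members differed in shape, with Pbrm1, Smarcc2 and Smarcd3 most covered in the first part and Smarca2 in the last.

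**Figure D3:**
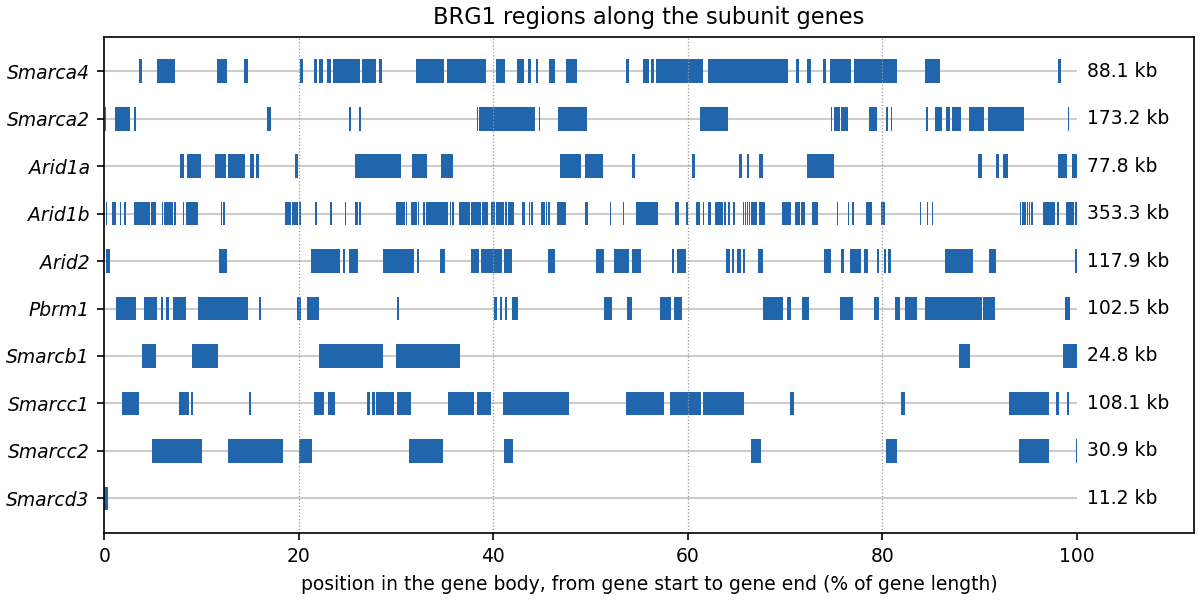
BRG1 regions (blue bars) along the body of each of the 10 subunit genes (y axis), from gene start to gene end as % of gene length (x axis), with gene lengths in kb at the right and dotted lines between the 5 equal parts. Regions fill 80.1% of the fourth part of Smarca4, and Smarcd3 has bases inside a region at its start alone.

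Close to the start, coverage of the members dipped in the first 1500 bp after it, and it was lowest at the far upstream end of the window. The mean over the 10 members was 7.76% between 5000 and 4500 bp upstream, 47.3% between 1000 and 500 bp upstream, 37.1% in the last 500 bp upstream, 13.2% in the first 500 bp downstream and 53.5% between 2500 and 3000 bp downstream. Over protein-coding genes the mean in these bins was 25.9%, 27.1%, 25.5%, 24.8% and 27.7%. The first 500 bp downstream were covered in part at 4 members, Smarca2, Arid2, Smarcc2 and Smarcd3. The share of protein-coding genes with any covered base in that bin was not counted. The bins named include the lowest and the highest of the 20 and were picked after values were seen. With 10 genes, each bin mean moves by up to 10 percentage points with a single member. The region-free stretch that held the start, measured between the nearest regions on either side, was a measure chosen after values were seen, and it varied widely over the 8 members without a region over the start. It was 0.54 kb at Arid2, 0.63 kb at Smarca2, 1.02 kb at Smarcb1, 1.44 kb at Pbrm1 and 2.46 kb at Smarcc1. At Arid1b, Arid1a and Smarca4 it was 7.65, 10.9 and 11.7 kb. The median was 1.95 kb for the 8 members and 6.96 kb for the 16946 protein-coding genes whose start lay in no region. When only regions of at least 600 bp were used, no member's start lay in a region, and the median stretch was 11.3 kb over all 10 members and 14.8 kb over the protein-coding genes whose start then lay in none.

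The rest of the family was described with the same measures. Of 21 other SWI/SNF subunit genes listed, 20 were matched by symbol. Their median covered share was 27.2% in the gene window and 30.9% in the start window, and 5 of 20 had a start inside a region, near the 24.7% of all genes. Gene-window coverage was highest at Smarcd2, which encodes BAF60B, with 42.9%, at Bcl11b, which encodes a zinc-finger protein of lymphoid and neural cells, with 42.2%, and at Actl6a, which encodes the actin-related BAF53A, with 39.1%. It was lowest at Actl6b, which encodes the neuronal BAF53B, with 0.81%, at Bcl7a with 11.4%, and at Bcl11a, which encodes a repressor of fetal globin genes, with 16.2%. The 3 BAF60 genes thus ranged from 4.95% at Smarcd3 over 18.5% at Smarcd1 to 42.9% at Smarcd2; Smarcd1 was added here after its value was seen.

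For 18 genes of ATPases of other remodeller families, the medians were 27.9% and 18.3%, and 5 of 18 had a start inside a region, again near the 24.7% of all genes. Coverage of the gene window was highest at Hells, which encodes a helicase needed for DNA methylation, with 52.5%, at Srcap, the ATPase that deposits H2A.Z, with 44.3%, and at Chd3, of the NuRD complex, with 37.4%. The lowest shares were those of Chd7, 19.8%, of the ISWI gene Smarca1, 19.8%, and of Ep400, 20.3%. Smarca4, at 40.1%, was below Smarcd2 and Bcl11b of its own family and below Hells and Srcap of the others.

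**Figure D4:**
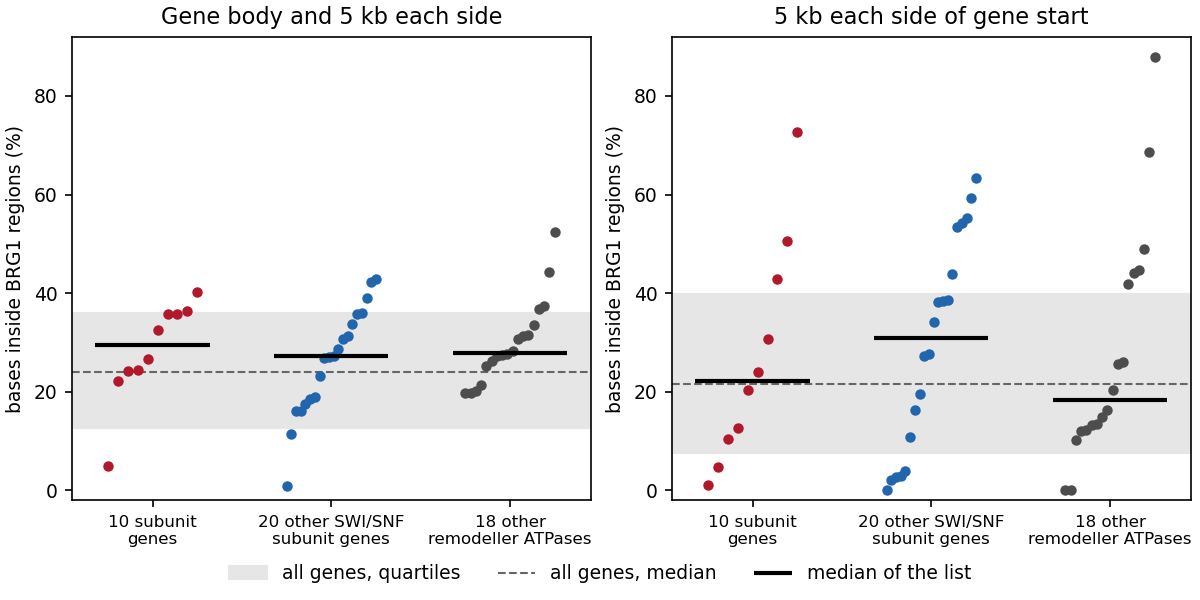
Covered share (y axis, % of bases inside BRG1 regions) of the 10 subunit genes, 20 other SWI/SNF subunit genes and 18 genes of other remodeller ATPases (x axis), 1 point a gene, in the gene window (left) and the start window (right); black lines are list medians, and the grey band and dashed line are the quartiles and median of all genes. The list medians are 29.5%, 27.2% and 27.9% on the left and 22.2%, 30.9% and 18.3% on the right.

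Genes that mark cell types, within and outside the heart, were covered as well. The median covered share of the gene window was 29.5% for 5 cardiomyocyte genes, 23.7% for 3 fibroblast genes, 27.4% for 3 endothelial genes, 28.0% for 4 macrophage genes and 31.8% for 4 genes of liver, pancreas, neurons and astrocytes. In the start window the medians were 15.3%, 2.10%, 13.3%, 15.3% and 13.8%. Single genes varied widely within a list, in the gene window from 20.6% at Tnnt2 to 45.4% at Actc1 for cardiomyocytes, from 0% at Col1a1 to 43.2% at Dcn for fibroblasts, and from 1.69% at Neurod1 to 44.2% at Ins2 for tissues outside the heart. Occupancy at these markers does not measure expression, so the tissue could not be checked from the list, and which cell types gave the regions at the subunit genes was not tested.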

How the data were processed

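The authors mapped BRG1 ChIP-seq reads to mm9 with Bowtie 1.0.0 and called regions with MACS2 2.0.10 (submitters' processing notes). The deposited list gives region starts and ends in bp, without a count or score. How duplicates were combined is not given in the sources used here, and the MACS2 call is unsure: the methods name bdgcomp, while the list is named like a comparison of conditions.

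Regions were intersected (at least 1 bp) with GENCODE vM1 genes in Python 3.11.15 with numpy 2.4.6, pandas 2.3.3 and pysam 0.24.0. On simulated regions the counting equalled bedtools 2.31.1 for 37273 of 37273 genes. Sequences came from mm9. RefSeq promoter entries (GRCm38.p6), found for 9 of 10 members and not for Arid2, were placed in mm9 by exact match. Of several records for a symbol, as for Srcap, the longest was used.

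The members and lists were chosen with earlier results of these data known. Genes named were the members, the 3 highest and 3 lowest by gene-window share of the other SWI/SNF genes and of the other remodeller ATPases, and the 3 closest to Smarca4 around the start. The marker genes named singly, the bins named around the start and the measure of region-free stretches were picked after values were seen. Alternatives changed the joining, length or overlap of regions, the windows, the genes compared, the start used and the measure. Leaving out repeats was not run, since the genome copy is not masked.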

Additional observations from a re-analysis of the deposited data

How the results depend on the processing

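The 12 alternatives, one of them only in part, since unsequenced bases but not repeats were left out, were applied where they bear on the members' shares, their medians and the counts of starts, of regions in the start window and of members above genes of like length. The region-free stretch was recomputed with other regions and RefSeq starts alone. Other values were not recomputed. RefSeq gene starts were added after seeing the data. The median covered share of the gene window, 29.5%, was 31.5% with regions within 500 bp joined and 26.7% with regions of at least 600 bp. It was 28.3% with flanks of 2 kb and 26.7% with flanks of 10 kb. The all-gene median, which is not matched for gene length, was 25.8%, 19.9%, 22.7% and 24.8% in the same order. For the start window, the members' median of 22.2% became 18.1% with regions of at least 600 bp, 27.2% with 2 kb, 23.3% with 10 kb, 27.4% with all coding transcript starts and 23.0% with RefSeq starts; over the genes compared it was 16.5%, 14.7%, 23.6% and 22.8% for the first 4 of these, and RefSeq starts were set for members alone. Members with a start inside a region numbered 0 with regions of at least 600 bp and 6 with all coding transcript starts, against 2. Members above genes of like length in the start window numbered 3 by regions per kb, against 5, and 40.5% of all genes were above by that measure. The median region-free stretch at the start, 1.95 kb over 8 members, was 11.3 kb over 10 members with regions of at least 600 bp and 1.44 kb over 7 with RefSeq starts. The cause was not tested. Other counts stayed within 1.5 times. Smarca4 had the highest gene-window share and Pbrm1 the highest start-window share under each alternative that changes the shares. Of 60 member values of the gene window under alternatives, 18 were higher, 22 lower and 20 equal; of 80 of the start window, 16, 21 and 43. Regions longer than 100 kb and unsequenced bases changed no member's value. No paired analysis was possible because the list does not separate the duplicates. Without depth or replicates, no share has an error.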
